A study of Mus musculus with 12 samples.

Results

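The genes examined were Atf4 and 9 genes tied to it or to the making of serine, namely Ddit3, Trib3, Asns, Phgdh, Psat1, Psph, Shmt2, Mthfd2 and Slc7a11. The list is fixed by name, but it was chosen with earlier results of these data known. All 10 were found among the 22609 genes of the count files and the 34993 identifiers of the FPKM table. The RNA came from mouse adherent neural stem (ANS) cells, a line of neural progenitors grown as a monolayer from E14.5 embryonic brain, which gives mainly neurons when growth factors are withdrawn. Bulk polyA RNA was sequenced in 12 libraries at 4 steps of differentiation in vitro, with 3 libraries of T0, 3 of T1, 4 of T2 and 2 of T3 cells.

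T0 were proliferating cells in Euromed-N with 1% N2, 20 ng/ml FGF2 and 20 ng/ml EGF. T1 cells had spent 2 days in medium D1, which keeps the Euromed-N base, with less of both growth factors (10 ng/ml FGF2 and 2 ng/ml EGF), N2 lowered to 0.5% and B27 added at 1%. T2 cells had then spent 2 days in medium B, a mix of DMEM/F12 and Neurobasal on laminin with 0.5% N2, 1% B27, 10 ng/ml FGF2 and 20 ng/ml BDNF, and no EGF. T3 cells are labelled as 10 days in medium B, while the study's text counts these days from the end of the T2 step. The medium, its growth factors, the time and the state of the cells changed together from T0 to T1 and from T1 to T2. By the paper's methods, the cells were also dissociated and reseeded between media D1 and B. From T2 to T3 the time and the state changed together. The parts of these changes cannot be told apart. Every group came from the same kind of culture, none carried a genetic change, and the study describes its replicas as independent.

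ATF4 is a transcription factor of the integrated stress response. When kinases phosphorylate the initiation factor eIF2, translation slows in general while that of the Atf4 mRNA rises, and ATF4 protein then raises genes for amino acid uptake and synthesis, for charging tRNAs and for the response to stress. Because this control acts on translation, the Atf4 mRNA level is not a reading of ATF4 protein, which was not measured. PHGDH, PSAT1 and PSPH make serine from a glycolytic intermediate, and SHMT2 and MTHFD2 pass its carbon to folate in mitochondria, a supply of units for purines and thymidylate that is typical of dividing cells.

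ATF4 binds C/EBP-ATF response elements, so promoter sequence of the 10 genes was searched for their core. The letters TGATGNAA were looked for on both strands in windows of 300 bases, from 250 before to 50 after each annotated start in RefSeq (GRCm38.p6). All 10 genes matched, with 11 windows because Psat1 has 2. Trib3, Asns and Slc7a11 held the letters, 3 of 10 genes, against 3.97% of all 32851 promoter windows. The E-box CACGTG, the letters that MYC binds, was in 0 of the 10 genes and in 7.15% of all windows. The 4 matches are shown because they mark the 3 genes whose windows carry these letters. They are on the minus strand of the genome, read 5′ to 3′ along the gene, with the matched letters in capitals.
Asns, chr6:7693216-7693241, matched 23 bases before the start: ccagccacaTGATGAAActtcccgca
Slc7a11, chr3:50443663-50443688, matched 66 bases before the start: tcatgtggcTGATGCAAacctggaga
Slc7a11, chr3:50443644-50443669, the letters reversed and complemented: ctggagaatTTGCATCAtcatgcagc
Trib3, chr2:152344030-152344055, reversed and complemented, after the start: agctcaggtTTACATCAgccgggcgg
A match describes letters and not a site in use, and a window without them says nothing about the factor.

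The libraries held 8910724 to 16631614 reads on genes, and levels are given as CPM, read counts scaled to a library of fixed total size, after TMM scaling over the 12 libraries. Differences are log2 fold changes with their standard error (SE) from the quasi-likelihood test of edgeR, with p adjusted over all genes tested and a threshold of 0.05. The p-values measure the spread between these libraries. Neuronal markers were higher after T0, with Dcx at 1.77 to 8.15 CPM at T0 and 201 to 547 CPM later. Gad1, of inhibitory neurons, went from 1.2 to 4.04 CPM at T0 to 24 to 56.4 CPM later, while Gad2, Slc32a1 and Stmn2 were at or near 0 in all 12 libraries. The oligodendrocyte lineage list of 9 markers summed to 3160 to 3630 CPM at T0 and 4980 to 5980 CPM at T3. The neural progenitor list of 6 markers summed to 5300 to 7420 CPM at T0 and was still at 5430 to 5690 CPM at T3. The summed level of 6 microglial markers was at most 0.58 CPM in any library. In bulk RNA, fewer cells of a type and less RNA per cell cannot be told apart.

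T0 replicate 3 stood apart from the other T0 libraries, and this touches every comparison with T0. Of its reads, 13.3% fell on no gene and 39% aligned to more than 1 place, the lowest and the highest shares of the 12 libraries. It also had the fewest genes with a count, 14463. Gfap, the astrocyte filament, was at 0.494 CPM there and at 146 and 148 CPM in replicates 1 and 2, and Slc1a2, an astrocyte glutamate transporter, was at 32.1 CPM against 315 and 328. Sox2 was at 186 CPM against 429 and 427, and Fabp7, of radial glia, at 2260 CPM against 748 and 805. The astrocyte list of 8 markers summed to 2610 to 4200 CPM at T0. The neuron list of 10 markers summed to 895 to 962 CPM at T0, and in the T1, T2 and T3 libraries to 2060 to 2630, 2030 to 2600 and 1700 to 2710 CPM. The part of these read shares and markers in the results was not tested. The changes of the 10 genes from T0, and the counts of genes related to them, are given with and without the library.

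The genes under study were among those that set T0 replicate 3 apart. It was the highest T0 library for 9 of the 10, Ddit3 being the exception, whereas it was the highest for 46.4% of 12952 genes. Relative to the mean of replicates 1 and 2, Mthfd2 was 4.09-fold, Trib3 3.3-fold, Asns 2.15-fold, Atf4 2.08-fold, Shmt2 1.82-fold and Psat1 1.75-fold as high in it, and Ddit3 0.589-fold. The median was 1.78-fold over the 10 genes and 0.998-fold over all genes. A like spread was seen at T3, where replicate 4 had 2.09 times the Mthfd2 level of replicate 1, 1.93 times that of Trib3 and 1.49 times that of Atf4, and 0.573 times that of Slc7a11. With a limit of 1.3-fold set after the values were seen, 6 of the 10 genes (Atf4, Trib3, Phgdh, Psat1, Shmt2 and Mthfd2) were higher in both of these libraries than in the others of their group, against 9.9% of 12919 genes.

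**Figure D1:**
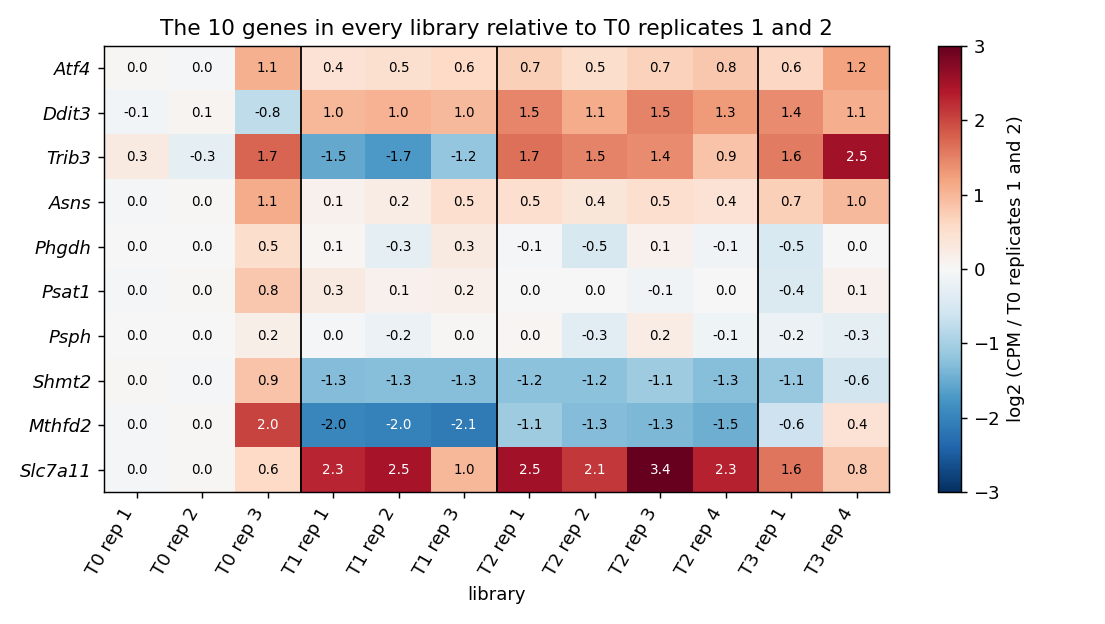
Log2 ratio of CPM in each of the 12 libraries (columns) to the mean log2 CPM of T0 replicates 1 and 2, for the 10 genes (rows). T0 replicate 3 is red for every gene but Ddit3, T1 and T2 are blue for Shmt2 and Mthfd2 and red for Slc7a11 and Ddit3, and Trib3 is blue at T1 only.

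Shmt2 and Mthfd2, the mitochondrial folate enzymes, were lower at T1 and T2 than at T0, while Ddit3 and Slc7a11 were higher. Trib3 was lower at T1 than at T0 and higher at T2 than at T1. Atf4, Asns and the serine synthesis enzymes Phgdh, Psat1 and Psph did not pass the test in any comparison. Once T0 replicate 3 was left out, Atf4 was called higher than T0 at all 3 steps and Asns at T2 and T3. At T1 against T0, 2 of the 10 genes rose (15.1% of the 12364 genes tested rose) and 3 fell (16.8% fell). Leaving out T0 replicate 3 gave 3 that rose and 3 that fell at T1 (25.2% and 24.9% of all genes). At T2 against T0, 2 rose (21.4% of 12607 genes) and 2 fell (21.8%). Without that library 5 rose and 2 fell at T2 (26.7% and 25.3% of all genes). The counts over all libraries lie within 2 genes of what the shares of all genes would give for 10. The median log2 fold change of the 10 genes was -0.16 at T1 and -0.05 at T2, beside -0.0082 and 0.00229 over all genes. Without T0 replicate 3 the median of the 10 was 0.1 at T1 and 0.22 at T2, so its sign depended on that library. The median over all genes in that setting is not given here.

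**Figure D2:**
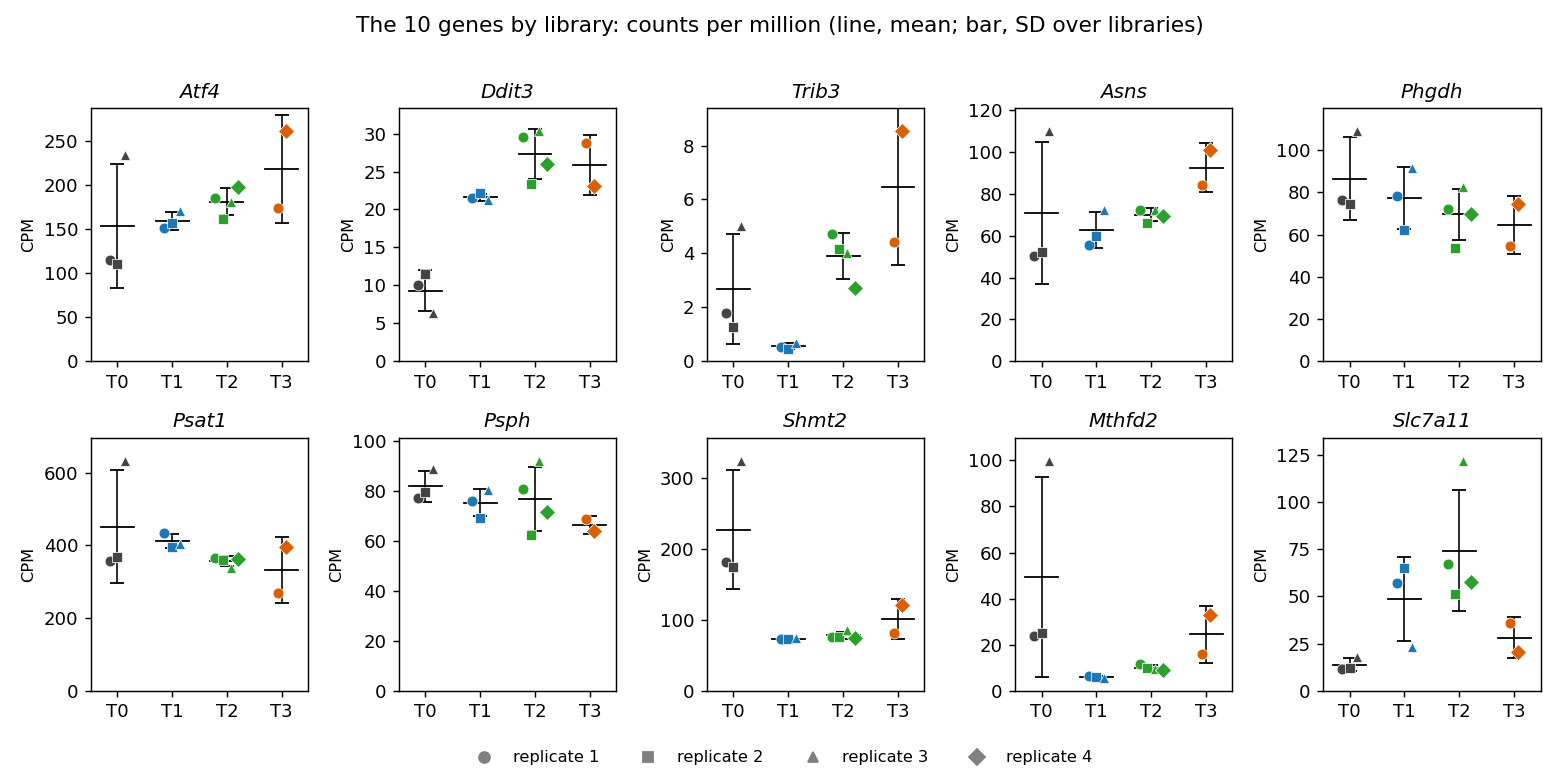
CPM of each of the 10 genes (panels, linear axes from 0) in each library, by step, with the mean as a line and the SD over libraries as a bar. The shape of a point gives the replicate number. T0 replicate 3 (triangle) is at 99.8 CPM for Mthfd2 and 324 CPM for Shmt2, above the other 11 libraries.

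Among the genes of the stress response itself, Atf4 (chr15:80085614-80087970 on mm9, plus strand) was abundant throughout. Its level was 115, 110 and 234 CPM in T0 replicates 1 to 3, and 151, 157 and 170 CPM at T1. It was 185, 161, 181 and 198 CPM at T2, and 174 and 261 CPM at T3. All later libraries were above T0 replicates 1 and 2, but T0 replicate 3 was above 8 of the 9 later libraries, so the groups overlapped. The log2 fold change was 0.05 (SE 0.29) at T1, with a 95% interval from -0.64 to 0.74, 0.25 (SE 0.26) at T2 and 0.52 (SE 0.38) at T3 (adjusted p = 0.911, 0.456 and 0.432 in edgeR). Without T0 replicate 3 it was 0.49 (SE 0.08), 0.69 (SE 0.1) and 0.96 (SE 0.21), and edgeR then called it higher at all 3 steps, with adjusted p = 0.00142, 0.000268 and 0.0379. In that setting the share of all genes called higher was 25.2% at T1, 26.7% for T2 and 9.94% for T3.

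Ddit3 (chr10:126727830-126733344, plus strand) encodes CHOP, a transcription factor that ATF4 raises and that promotes cell death when stress lasts. It was at 10.1, 11.5 and 6.35 CPM at T0, then 21.5, 22.2 and 21.2 CPM at T1. It was at 29.6, 23.3, 30.3 and 26 CPM at T2 and at 28.7 and 23.1 CPM at T3. Every later library was above every T0 library, with no overlap (29.1% of genes lay wholly above T0 at T1, 27.6% in T2 and 24.6% in T3). The log2 fold change was 1.2 (SE 0.23, adjusted p = 0.00965 in edgeR) at T1 and 1.55 (SE 0.22, adjusted p = 0.000897) at T2. At T3 it was 1.49 (SE 0.31, adjusted p = 0.0549 in edgeR), which misses the threshold. T0 replicate 3 was the lowest library for Ddit3, and without it the values were 0.99, 1.34 and 1.28 (adjusted p = 0.000203, 5.17e-05 and 0.0187 in edgeR). Exons of Ddit3 and of Mars, on the other strand, share 68 bases, and the strand setting of the counting was not given, so some of its reads may belong to Mars.

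Trib3 (chr2:152163158-152169768, minus strand) encodes a pseudokinase that is induced by ATF4 and CHOP and holds ATF4 in check. It was at 1.79, 1.25 and 5.01 CPM at T0, then 0.515, 0.452 and 0.669 CPM at T1, which are 6, 6 and 11 reads. At T2 it was at 4.73, 4.18, 4.02 and 2.7 CPM, and at T3 at 4.41 and 8.53 CPM. All 3 T1 libraries were below all other libraries. Trib3 fell at T1, with a log2 fold change of -2.28 (SE 0.61, adjusted p = 0.0295 in edgeR), and its libraries lay wholly below those of T0 (27.2% of genes did). The call needed all 3 T1 libraries, since leaving out replicate 1, 2 or 3 gave -2.23, -2.15 and -2.46 (adjusted p = 0.101, 0.111 and 0.084 in edgeR). The size of the fall depended on T0 replicate 3, without which it was -1.45 (SE 0.37, adjusted p = 0.0105 in edgeR).

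From T1 to T2, Trib3 rose 6.9-fold, a log2 fold change of 2.79 (SE 0.31, adjusted p = 0.00653 in edgeR), with a 95% interval from 2.1 to 3.47. It was the only one of the 10 genes that passed in that comparison, in which 0.573% of 12382 genes rose and 0.0565% fell. Same-numbered libraries of T1 and T2 tended to deviate together, although T1 replicate 3 went most closely with T2 replicate 4. With the replicate number as a block the value was 2.94 (SE 0.29, adjusted p = 0.0115 in edgeR). Without T1 replicate 1 it was 2.74 (SE 0.37, adjusted p = 0.0582 in edgeR), and in 1 fit of all 12 libraries, which lends the spread of T0 and T3 to T1 and T2, 2.79 (SE 0.52, adjusted p = 0.108). At T2 and T3 Trib3 overlapped T0 through T0 replicate 3, with log2 fold changes of 0.54 (SE 0.46) and 1.28 (SE 0.66) and edgeR adjusted p = 0.374 and 0.278. Without that library they were 1.34 (SE 0.31) and 2.08 (SE 0.44), with adjusted p = 0.005 and 0.0369 in edgeR.

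Asns (chr6:7625169-7643254, minus strand) makes asparagine and is a textbook target of ATF4. Its level was 50.2, 52.1 and 110 CPM at T0, and 55.7, 59.8 and 72.5 CPM at T1. It was 72.4, 66.1, 72.5 and 69.4 CPM at T2, and 84.4 and 101 CPM at T3. T0 replicate 3 was the highest of the 12 libraries, and T0 replicates 1 and 2 were the lowest. The log2 fold change from T0 was -0.19 (SE 0.31), -0.01 (SE 0.26) and 0.4 (SE 0.37) at T1, T2 and T3 (adjusted p = 0.671, 0.98 and 0.529 in edgeR). Without T0 replicate 3 it was 0.28 (SE 0.12), 0.46 (SE 0.08) and 0.87 (SE 0.13), with adjusted p = 0.081, 0.00131 and 0.0192 in edgeR. The libraries of T3 lay above those of T2 (12.8% of genes did), by a log2 fold change of 0.41 (SE 0.11, adjusted p = 0.0952 in edgeR).

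The 3 enzymes of serine synthesis passed the edgeR test in none of the 5 comparisons. Phgdh (chr3:98117093-98143913, minus strand), which catalyses the committed step, ranged from 74.4 to 109 CPM at T0, 62 to 91.4 in T1, 53.7 to 82.6 in T2 and 54.8 to 74.5 in T3 libraries. Its groups overlapped in every comparison, and its log2 fold changes from T0 were -0.17 (SE 0.21), -0.31 (SE 0.18) and -0.41 (SE 0.24). The 95% intervals ran from -0.67 to 0.32 at T1 and from -0.73 to 0.11 at T2. Leaving out T0 replicate 3 gave 0.03 (SE 0.15) at T1, -0.11 (SE 0.14) at T2 and -0.21 (SE 0.17) at T3, with adjusted p = 0.885, 0.535 and 0.414 in edgeR. The Phgdh count is uncertain, because 96.5% of its transcript has a copy elsewhere on the genome at up to 98.8% identity, on chromosomes 7 and 8, and reads that align to more than 1 place were not counted. None of the other 9 genes had such a copy.

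Psat1 (chr19:15979168-16021827, minus strand), the aminotransferase of the pathway, was at 356, 368 and 633 CPM at T0 and between 268 and 434 CPM in the 9 later libraries. Its log2 fold change from T0 was -0.15 (SE 0.23) at T1, with a 95% interval from -0.69 to 0.4, -0.34 (SE 0.2) at T2, from -0.79 to 0.12, and -0.43 (SE 0.33) at T3. The direction at T1 depended on T0 replicate 3, since all 3 T1 libraries, at 397 to 434 CPM, lay above T0 replicates 1 and 2. Without it the values of Psat1 were 0.17 (SE 0.08), -0.02 (SE 0.08) and -0.11 (SE 0.2), with adjusted p = 0.116, 0.858 and 0.721 in edgeR, and with only the libraries numbered 1 and 2 the T1 value was 0.19 (SE 0.07, adjusted p = 0.0305). The T2 libraries lay just below those of T1 (5.52% of genes did), with 337 to 365 CPM against 397 to 434 and a log2 fold change of -0.2 (SE 0.07, adjusted p = 0.303 in edgeR). Psph (chr5:130271434-130293129, minus strand), the phosphatase that ends the pathway, stayed between 62.2 and 92.1 CPM in all 12 libraries. The log2 fold change of Psph from T0 was -0.13 (SE 0.12) at T1, with a 95% interval from -0.41 to 0.15, and -0.09 (SE 0.14) at T2, from -0.42 to 0.24. At T3 its 2 libraries, at 68.8 and 63.8 CPM, lay below the T0 libraries at 77.1 to 89 CPM (25.4% of genes did so), with a log2 fold change of -0.29 (SE 0.15, adjusted p = 0.28 in edgeR). Leaving out T0 replicate 3 gave -0.07, -0.03 and -0.23 for Psph at T1, T2 and T3 (adjusted p = 0.573, 0.881 and 0.205 in edgeR). Falls of the size seen for Shmt2 and Mthfd2 thus lie outside the intervals of all 3 enzymes at T1 and T2.

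Shmt2 (chr10:126954195-126959491, minus strand), the mitochondrial serine hydroxymethyltransferase, takes a carbon from serine and leaves glycine. It was at 182, 174 and 324 CPM at T0, then 72.7, 73.5 and 73.7 CPM at T1. The T2 libraries were at 76.2, 76.3, 85.3 and 73.9 CPM and those of T3 at 81.5 and 121 CPM. All 9 later libraries lay below all 3 T0 libraries, as did 27.2% of genes at T1, 26.6% in T2 and 25.4% in T3. Shmt2 fell at T1 by a log2 fold change of -1.64 (SE 0.25, adjusted p = 0.00383 in edgeR) and at T2 of -1.53 (SE 0.21, adjusted p = 0.000799). Without T0 replicate 3 the values were -1.29 (SE 0.07, adjusted p = 3.41e-06 in edgeR) and -1.19 (SE 0.08, adjusted p = 3.69e-06), where 24.9% and 25.3% of all genes were called lower. At T3 the log2 fold change was -1.15 (SE 0.35, adjusted p = 0.106 in edgeR), and without T0 replicate 3 it was -0.81 (SE 0.2), with adjusted p = 0.0493. Exons of Shmt2 share 14 bases with Ndufa4l2 on the other strand.

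Mthfd2 (chr6:83255685-83267600, minus strand), the folate dehydrogenase that follows SHMT2, moved over the widest range of these enzymes. It was at 23.9, 24.9 and 99.8 CPM at T0, then 6.27, 6.03 and 5.6 CPM at T1. At T2 it was at 11.7, 9.85, 9.6 and 8.9 CPM, and at T3 at 15.8 and 33 CPM. All T1 libraries were below all T2 libraries, all T2 libraries below all T3 libraries, and the T3 libraries lay on either side of T0 replicates 1 and 2. Mthfd2 fell at T1, with a log2 fold change of -3.06 (SE 0.6, adjusted p = 0.0104 in edgeR), and at T2, with -2.3 (SE 0.49, adjusted p = 0.0062).

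The SE of Mthfd2 was smaller without T0 replicate 3. The log2 fold change was then -2.05 (SE 0.13, adjusted p = 4.96e-06 in edgeR) at T1 and -1.29 (SE 0.13, adjusted p = 3.39e-05) at T2, and at T3 it went from -1.01 (SE 0.74, adjusted p = 0.435) to 0 (SE 0.09, adjusted p = 1). Without T1 replicate 2 or 3 the fall at T1 was -3.06 and -3.02 (adjusted p = 0.0555 and 0.0544 in edgeR). From T1 to T2 the log2 fold change was 0.75 (SE 0.15, adjusted p = 0.0605 in edgeR), with no overlap (6.56% of genes lay wholly above). With the replicate number as a block it was 0.8 (SE 0.14, adjusted p = 0.0422 in edgeR), a rise of 1.74-fold, in a setting where 1.51% of genes rose and 0.476% fell. From T2 to T3 it was 1.29 (SE 0.27, adjusted p = 0.0586 in edgeR), with no overlap (12.8% of genes lay wholly above). At T2 against T0 the block gave -1.9 (SE 0.52) and edgeR adjusted p = 0.0555, although the numbers of T0 and T2 did not mark libraries that deviate together.

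Slc7a11 (chr3:50168858-50247535, minus strand) encodes xCT, which exchanges glutamate for cystine, the precursor of glutathione, and is a target of ATF4 and of NRF2. It was at 11.5, 12 and 17.9 CPM at T0, then 57.3, 65.3 and 23.3 CPM at T1. It was at 67.1, 51.1, 122 and 57.9 CPM at T2, and at 35.8 and 20.5 CPM at T3. Every later library was above every T0 library, the nearest being T3 replicate 4 and T1 replicate 3. Of all genes, 29.1% lay wholly above T0 at T1, 27.6% in T2 and 24.6% in T3. Slc7a11 rose at T1 by a log2 fold change of 1.8 (SE 0.39, adjusted p = 0.015 in edgeR) and at T2 by 2.43 (SE 0.34, adjusted p = 0.000826). The T1 call was lost without T1 replicate 1 (1.67, edgeR adjusted p = 0.0584) or replicate 2 (1.54, adjusted p = 0.0627), which are the high libraries. Leaving out T0 replicate 3 gave 2.02 (SE 0.39, adjusted p = 0.00274 in edgeR) at T1 and 2.66 (SE 0.35, adjusted p = 0.000194) at T2. At T3 against T0 the log2 fold change was 1.04 (SE 0.33, adjusted p = 0.115 in edgeR), and without T0 replicate 3 it was 1.27 (SE 0.3), with adjusted p = 0.0441. From T2 to T3 its level was lower, with no overlap (12.9% of genes lay wholly below) and a log2 fold change of -1.39 (SE 0.38, adjusted p = 0.109 in edgeR).

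With all 5 libraries at T3 and T0, none of the 10 genes passed at T3, against 3.31% of 12721 genes higher and 1.41% lower. Ddit3, Slc7a11 and Shmt2 had an unadjusted p under 0.05, as did 3350 of all genes. DESeq2, an alternative count model, called Ddit3 and Slc7a11 higher and Shmt2 lower. The share of all genes that DESeq2 called is not given here, so these calls stand without a background. Without T0 replicate 3, edgeR called Atf4, Ddit3, Trib3, Asns and Slc7a11 higher and Shmt2 lower, in a setting where 9.94% of genes were called higher and 8.49% lower. From T2 to T3 none of the 10 passed with edgeR, against 0.5% of 12599 genes higher and 0.691% lower, and Mthfd2, Asns and Slc7a11 were the ones with non-overlapping libraries that came closest. DESeq2 called Mthfd2 higher and Slc7a11 lower at that step, again without its share over all genes given here. Over all genes, 2144 had an unadjusted p under 0.05.

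The T3 libraries also decided what was called from T2 to T3. With T3 replicate 1 left out, and the remaining library taken to vary like those of T2, edgeR called 4 of the 10 genes higher, namely Mthfd2 (1.73, adjusted p = 0.00241), Shmt2 (0.64, adjusted p = 0.0144), Asns (0.53, adjusted p = 0.0235) and Atf4 (0.53, adjusted p = 0.0397), and Slc7a11 lower (-1.85, adjusted p = 0.0437). In that setting 6.46% of all genes were called higher and 4% lower. With T3 replicate 4 left out instead, none of these 5 genes was called. The values were then 0.66 for Mthfd2 (adjusted p = 0.207 in edgeR), 0.06 for Shmt2 (adjusted p = 0.856), 0.27 for Asns (adjusted p = 0.362), -0.05 for Atf4 (adjusted p = 0.897) and -1.05 for Slc7a11 (adjusted p = 0.332).

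**Figure D3:**
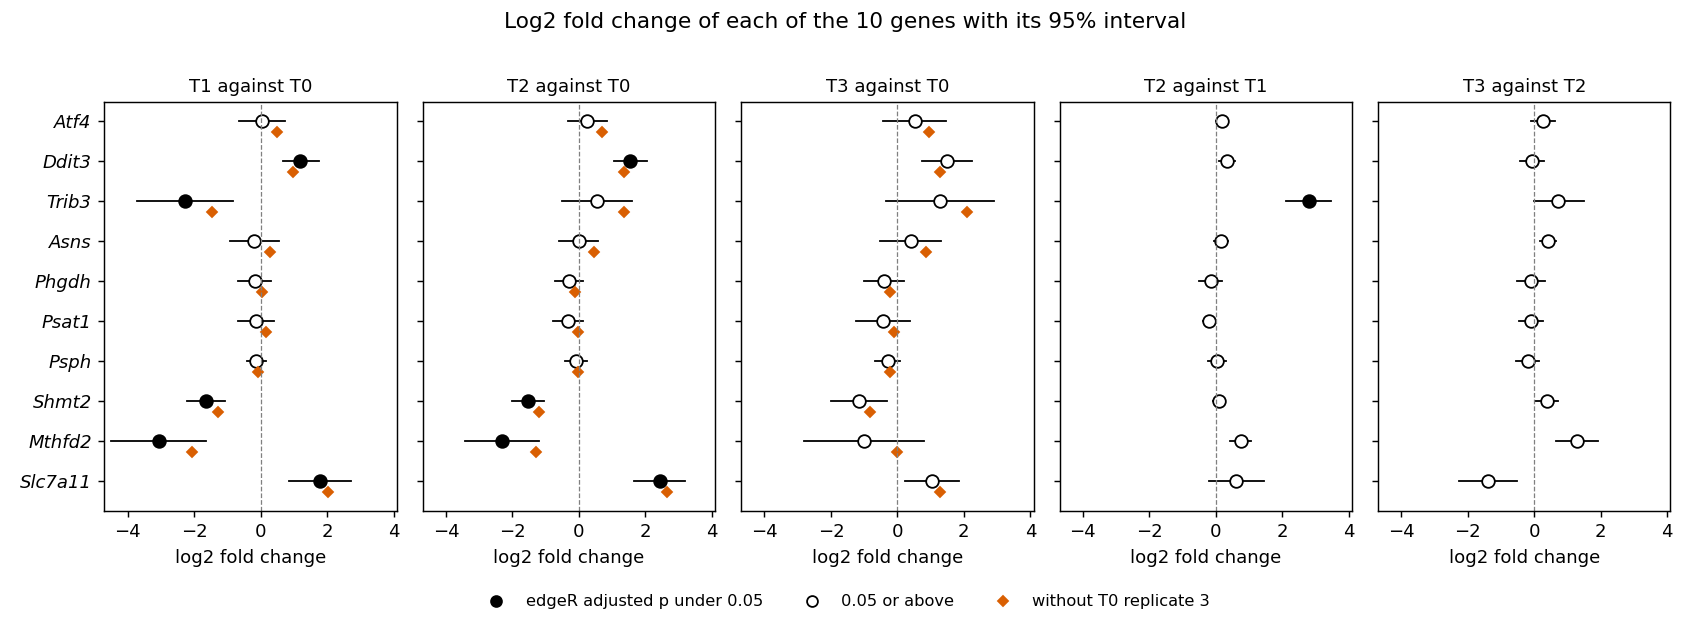
Log2 fold change of the 10 genes (rows) in the 5 comparisons (panels), as circles with 95% intervals from edgeR, filled where the adjusted p was under 0.05. Orange diamonds give the value without T0 replicate 3, which lies to the right of the circle for all genes but Ddit3 in the comparisons with T0.

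Scaled to transcript length, as FPKM, the order of the genes was led by Psat1 and Atf4 at every step. The FPKM of Psat1 had means of 218, 197, 158 and 128 from T0 to T3, and that of Atf4 was 92.8, 92.2, 97.7 and 109. At T0 Shmt2 came next, with a mean of 77.8 FPKM (library range 56.1 to 118), ahead of Psph at 52.5 (46.5 to 62.6), and these ranges overlap. By T1 Shmt2 was at 24.1 FPKM (23.6 to 24.6), below Psph at 48.4 (43.7 to 51), with no overlap. Mthfd2 was at 8.66, 9.68 and 40.5 FPKM in T0 replicates 1 to 3, so that its T0 mean of 19.6 rests on replicate 3. It was at 2.09 to 3.28 FPKM at T1, 3.34 to 4.69 in T2 and 5.79 and 10.3 in T3 libraries, the last on either side of T0 replicates 1 and 2. Tested with limma on log2(FPKM + 1), the fall of Trib3 at T1 (-0.83, adjusted p = 0.0776), its rise from T1 to T2 (1.12, adjusted p = 0.224) and the rise of Slc7a11 at T1 (1.12, adjusted p = 0.052) did not pass. With a pseudocount of 0.1 in place of 1 these values were -1.95 (adjusted p = 0.0678 in limma), 2.44 (adjusted p = 0.184) and 1.61 (adjusted p = 0.0458), so that of the 3 the rise of Slc7a11 passed. The lowest mean of the 10 genes was that of Trib3 at T1 (0.219 FPKM) and T2 (1.71), and that of Slc7a11 at T0 (1.07) and T3 (1.93), where the ranges of Trib3 and Slc7a11 overlap. The locus that the FPKM table gives Ddit3 reaches well past its annotated end, so its FPKM (12.6 at T0 and 28.5 to 32.7 later) may hold reads of a neighbour. The locus given for Shmt2 starts at 126951994, beside 126954195 in GENCODE, so its FPKM may also hold reads from outside the annotated gene.

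Across the 12 libraries, the gene with the profile most like each of the 10 was sought among 12952 genes by the root mean square difference of centred log2 CPM. Asns was the third nearest gene to Atf4, at 0.144 log2 units, after Dnajb11, an endoplasmic reticulum co-chaperone, at 0.131 and A030009H04Rik at 0.138. The gene nearest to Asns was Yars, a tRNA synthetase, at 0.113. For Shmt2 the nearest were Rps6ka6 at 0.106, Usp1 at 0.113 and Rfc2, a subunit of the DNA clamp loader, at 0.122, and for Mthfd2 they were Ccnd1, cyclin D1, at 0.211, Ccne2, cyclin E2, at 0.307 and Lpl at 0.327. Ddit3 was nearest to Ehbp1l1 at 0.118 and Gabarapl1 at 0.13. Trib3 and Slc7a11 were farther from any other gene, the nearest being 2010300C02Rik at 0.581 and Cgn at 0.402. These likenesses rest on libraries that share T0 replicate 3 and are a description.

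Other folate enzymes were lower too. Of 19 folate and glycine enzymes, 11 fell and 1 rose at T1, and 14 fell and 1 rose at T2, where 16.8% and 21.8% of all genes fell. The median log2 fold change of the group was -0.76 in each of these comparisons. With T0 replicate 3 left out, 13 and 15 fell (24.9% and 25.3% of all genes) and 1 rose, with medians of -0.51 and -0.53. Shmt1, the cytosolic counterpart of Shmt2, was at 81.4, 76.3 and 195 CPM at T0, then 12.7 to 17.8 CPM at T1 (log2 fold change -2.89, SE 0.4, adjusted p = 0.00283 in edgeR). Tyms, thymidylate synthase, fell by a log2 fold change of -2.52 (SE 0.31, adjusted p = 0.00172 in edgeR). The gene that rose was Mthfd2l, a paralog of Mthfd2 with the same mitochondrial reaction, at 26.7 to 27.6 CPM at T0, 33.9 to 39.9 CPM at T1 and 33.3 to 36.4 CPM at T2. Its log2 fold change was 0.44 (SE 0.12, adjusted p = 0.0325 in edgeR) at T1 and 0.35 (SE 0.1, adjusted p = 0.0253) at T2. Leaving out any T0 or T1 library but T0 replicate 3 ended the T1 call of Mthfd2l, with values of 0.39 to 0.5 and adjusted p up to 0.12. At T2 leaving out any library but T0 replicate 3 or T2 replicate 2 did so, with adjusted p up to 0.0954. Of the genes known to regulate serine enzymes, Myc fell at T1 (-1.49, SE 0.27, adjusted p = 0.00782 in edgeR) and at T2 (-1.2, SE 0.23, adjusted p = 0.0038), and rose from T2 to T3 (0.79, SE 0.15, adjusted p = 0.0492). Leaving out any T2 library or T3 replicate 4 ended this last call. Over all 6 libraries left out in turn, the value was 0.52 to 1.02 and the adjusted p up to 0.169.

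Other targets of ATF4 went both ways. Of 19 tested at T1, 9 fell and 1, Sesn2, rose (16.8% and 15.1% of all genes did), and their median log2 fold change was -0.79. At T2, 7 of 21 fell and 5 rose (21.8% and 21.4% of all genes), and at T3, 3 rose and 0 fell (3.31% and 1.41%). With T0 replicate 3 left out, 11 fell and 2 rose at T1 with a median of -0.55, 8 fell and 6 rose at T2, and 4 fell and 4 rose at T3, beside 24.9% and 25.2%, 25.3% and 26.7%, and 8.49% and 9.94% of all genes. Pck2, mitochondrial PEP carboxykinase, was at 87.5 to 88.9 CPM in the 3 T0 libraries and at 31 to 39.7 CPM at T1, and its log2 fold change was -1.39 (SE 0.14, adjusted p = 0.000839 in edgeR), without the rise in T0 replicate 3 that Mthfd2 had. Cebpb, a transcription factor that pairs with ATF4, fell at T1 (-1.52, SE 0.3, adjusted p = 0.011 in edgeR), with adjusted p up to 0.0579 when T1 replicate 1 or 2 was left out. Eif4ebp1, a brake on translation, fell at T2 (-1.23, SE 0.29, adjusted p = 0.0101 in edgeR, and -0.72 without T0 replicate 3).

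From T1 to T2, 2 of 21 tested targets rose, Atf3 and Chac1, and 0 fell, beside 0.573% and 0.0565% of all genes. Atf3, a transcription factor induced under stress, was at 1.45 to 1.72 CPM at T0, 0.601 to 0.904 CPM at T1 and 2.76 to 6.58 CPM at T2, a log2 fold change from T1 to T2 of 2.61 (SE 0.35, adjusted p = 0.0157 in edgeR). Chac1, which degrades glutathione, was at 0.138 to 0.374 CPM at T0, 0.243 to 0.603 CPM at T1 and 1.64 to 2.38 CPM at T2, with a change from T0 to T2 of 2.96 (SE 0.4, adjusted p = 0.000738 in edgeR) and from T1 to T2 of 2.11 (SE 0.35, adjusted p = 0.0355). The T1 to T2 call of Atf3 was lost without T1 replicate 1 or T2 replicate 1 (adjusted p up to 0.119) and that of Chac1 whichever of the 7 libraries was left out (adjusted p up to 0.157). The values then ranged from 2.42 to 2.82 for Atf3 and from 1.76 to 2.38 for Chac1. Nupr1, a stress-induced nuclear protein, had at most 3 reads in any T0 library and its T2 level was at least 7.95-fold higher, against a floor of 3 reads per library. From T1 to T2 neither Nupr1 (adjusted p = 0.085 in edgeR) nor Sesn2 (adjusted p = 0.0705) passed. Sesn2, a leucine sensor, rose at T1 (0.57, SE 0.14, adjusted p = 0.0235 in edgeR) and was at 103 and 114 CPM at T3 beside 32.9 to 40.5 CPM at T0, a log2 fold change of 1.56 (SE 0.16, adjusted p = 0.0174). The T1 call of Sesn2 was lost without T0 replicate 1 or T1 replicate 1 or 2 (adjusted p up to 0.1), and the T3 call when any 1 library but T0 replicate 3 was left out (1.48 to 1.63, adjusted p up to 0.146).

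**Figure D4:**
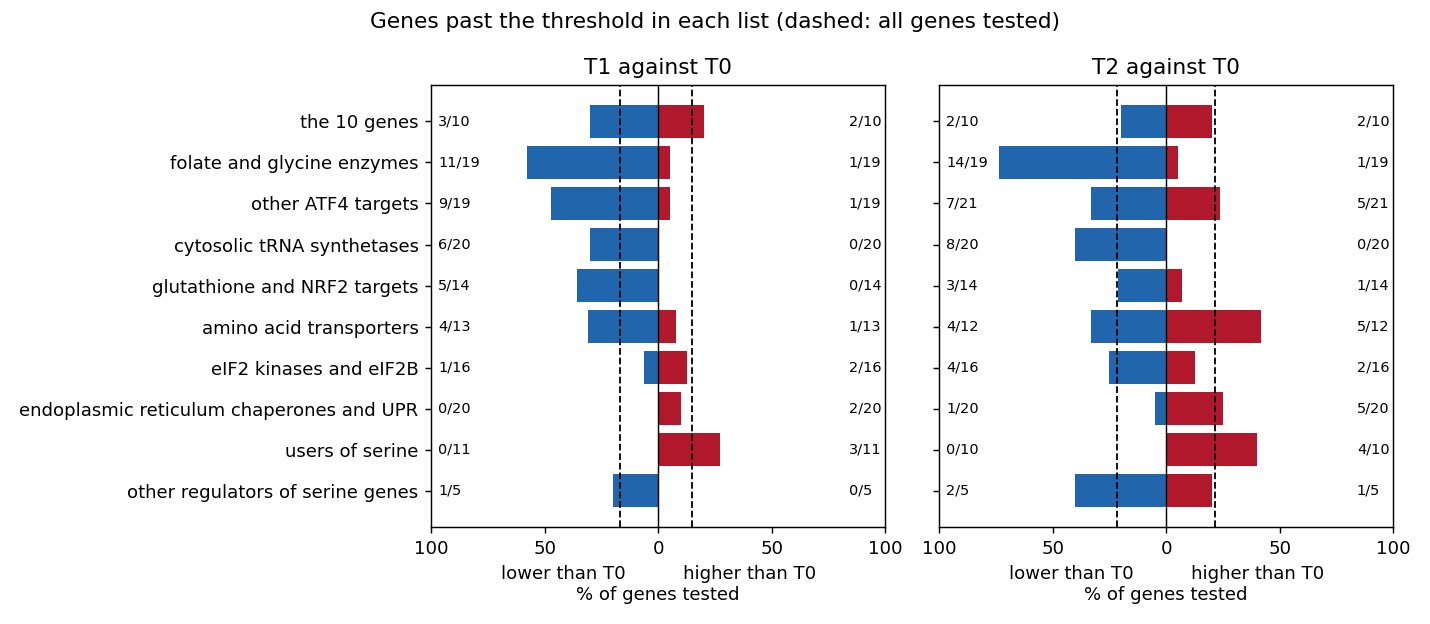
Share of the tested genes of each list that edgeR called lower (blue, left) or higher (red, right) at T1 and T2 against T0, with the counts beside the bars and the share over all genes tested as dashed lines. The folate and glycine enzymes had 11 of 19 genes lower at T1 and 14 of 19 at T2.

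Of 20 cytosolic tRNA synthetases, which ATF4 also raises, 6 fell at T1 and 8 at T2 (16.8% and 21.8% of all genes did), and 0 rose. With T0 replicate 3 left out, 9 fell and 1 rose at T1, 9 fell and 2 rose at T2, and 2 fell and 3 rose at T3. In that setting 24.9%, 25.3% and 8.49% of all genes fell at T1, T2 and T3, and 25.2%, 26.7% and 9.94% rose. Qars, for glutamine, fell at T1 (-0.87, SE 0.11, adjusted p = 0.00205 in edgeR) and T2 (-1.05, SE 0.1, adjusted p = 0.000139), calls that no left-out library ended. Vars, for valine, was at 215, 213 and 449 CPM at T0 and 104 to 110 CPM at T1 (-1.47, SE 0.3, adjusted p = 0.0116 in edgeR), with T0 replicate 3 the highest library. The value was -1.02 without that library, and the call was lost when any 1 T1 library was left out (adjusted p up to 0.0561). Of 13 amino acid transporters, 4 fell and 1 rose at T1, and of 12 tested at T2, 4 fell and 5 rose, beside 16.8% and 15.1% of all genes at T1 and 21.8% and 21.4% at T2. Leaving out T0 replicate 3 gave 5 that fell and 5 that rose of 13 at each of these steps (24.9% and 25.2% of all genes at T1, 25.3% and 26.7% in T2). The largest rise at T2 was that of Slc7a3, a carrier of arginine, at 1.35, 1.18 and 0.212 CPM at T0 and 4.66 to 7.89 CPM at T2 (2.71, SE 0.5, adjusted p = 0.00313 in edgeR), and no library left out ended this call. Slc7a5 and Slc3a2 form the transporter LAT1, and Slc7a5 was at 77.9, 82.8 and 167 CPM at T0 and 171 to 293 CPM at T2 (1.01, SE 0.3, adjusted p = 0.0266 in edgeR). Its call was lost without T0 replicate 1 or 2 or T2 replicate 3 or 4 (adjusted p up to 0.0787), and its value was 0.81 to 1.45 over the 7 libraries left out in turn. Slc7a1, another such carrier, fell at T1 (-1.77, SE 0.49, adjusted p = 0.0323 in edgeR) and rose from T2 to T3 (1.02, SE 0.16, adjusted p = 0.0433). The T1 value was -0.96 without T0 replicate 3 and not called when any 1 T1 library was left out (adjusted p up to 0.117), and the T2 to T3 call was lost without T2 replicate 1, 3 or 4 or T3 replicate 4 (adjusted p up to 0.149). Sfxn1, the mitochondrial serine carrier, was at 320 to 329 CPM at T0 but 145 and 170 CPM at T3 (-1.02, SE 0.16, adjusted p = 0.0307 in edgeR), a call lost when any 1 library but T0 replicate 3 was left out (-1.15 to -0.91, adjusted p up to 0.232).

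Of 16 kinases of eIF2, subunits and exchange factors, 2 rose and 1 fell at T1, and 2 rose and 4 fell at T2, near the shares of all genes (15.1% and 16.8% at T1, 21.4% and 21.8% at T2). Without T0 replicate 3 it was 3 and 3 at T1 (25.2% and 24.9% of all genes) and 3 and 4 at T2 (26.7% and 25.3%). Eif2ak4 encodes GCN2, the kinase that senses uncharged tRNA, and it rose at T1 (0.49, SE 0.13, adjusted p = 0.0258 in edgeR) and at T2 (0.43, SE 0.12, adjusted p = 0.0171). Impact, an inhibitor of GCN2 activation, rose at the same steps (0.55 and 0.77, adjusted p = 0.0282 and 0.00194 in edgeR). The T1 calls were lost when any 1 T1 library was left out for Impact (adjusted p up to 0.104) and without replicate 1 or 2 of T0 or T1 for Eif2ak4 (adjusted p up to 0.114), and the T2 call of Eif2ak4 without T0 replicate 2 (0.37, adjusted p = 0.0636). Of 14 glutathione and NRF2 genes, 5 fell and 0 rose at T1, and 3 fell and 1 rose at T2, beside 16.8% and 15.1% of all genes at T1 and 21.8% and 21.4% at T2. Leaving out T0 replicate 3 gave 3 that fell and 4 that rose at T2, near the shares of all genes (25.3% and 26.7%). At T1, 7 then fell and 1 rose (24.9% and 25.2% of all genes). Gclc, the catalytic subunit for glutathione synthesis, was at 109, 99.4 and 215 CPM at T0 and 85.5 to 118 CPM at T1 and T2. Of the users of serine, 3 of 11 rose and 0 fell at T1, and 4 of 10 rose and 0 fell at T2, where 15.1% and 21.4% of all genes rose. This count depended on T0 replicate 3, without which 8 of 11 rose at T1 and 6 of 11 at T2 (25.2% and 26.7% of all genes). Among those that rose at T1 was Srr, serine racemase, which makes D-serine (1.31, SE 0.28, adjusted p = 0.0142 in edgeR, and up to 0.0587 without T1 replicate 1 or 2).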

How the data were processed

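Per the paper and the submitters' processing notes, the authors made TruSeq libraries, read them on an Illumina HiScanSQ with CASAVA 1.8 and aligned reads to mm9 with TopHat2 2.0.6 and Bowtie 0.12.7.0. They deposited counts per gene, not normalized, from HTSeq 0.6.0, whose strand setting is not given in the sources used here, and used DESeq2 1.0.0. The authors also deposited FPKM values per gene, and the tool behind them is not given in the sources used here. The FPKM columns were matched to libraries by name, and 12 of 12 agreed best with the counts of their own library. The 5 count entries that name no gene were left out: 13.3% to 24.1% fell on no gene, 0.68% to 0.903% were ambiguous and 26% to 39% aligned to more than 1 place.

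Each comparison used the libraries of its 2 groups, TMM factors, filterByExpr and edgeR 4.0.16 (glmQLFTest) in R 4.3.3. DESeq2 1.42.0, other filters, limma 3.58.1 on log2(FPKM + 1) or log2(FPKM + 0.1), 1 fit of all 12 libraries, the replicate block and leaving out libraries were alternatives. The fits were tested on simulated counts. A gene with at most 3 counts in each library of a group was taken as at the floor. Copies of transcripts were sought with blastn 2.17.0 (97% identity over 100 bases). Gene positions are those of GENCODE vM1 on mm9, and promoter sequences are from RefSeq, GRCm38.p6.

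Named genes followed a rule: the 10 genes, then in each list of related genes up to 3 falls and 3 rises that passed the test by size, and the most abundant gene that did not pass. The text prints part of the genes this gave, picked after their values were seen. Others, chosen after their values were seen, are the markers of T0 replicate 3, Slc3a2, Hspa5, Gclc, Gclm and Hmox1, and the nearest profiles were ranked by distance. The members and lists were chosen with earlier results of these data known.

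The replicate numbers were checked by correlating deviations from group means between same-numbered libraries: T1 and T2 gave 0.199, 0.341 and 0.166, so their numbers were taken as pairs, and T0 with T1 gave -0.0179, 0.121 and 0.0657 and T0 with T2 -0.0644, 0.0155 and -0.152, so theirs were not. The highest value between T1 and T2 was that of differently numbered libraries, T1 replicate 3 with T2 replicate 4, at 0.37. The pairing of T1 with T2 is thus uncertain.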

Additional observations from a re-analysis of the deposited data

Results flagged for a closer look

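The CPM of Psat1 at T2 had 1 library far from the other 3. T2 replicate 3 was at 337 CPM, while the others were at 361 to 365 CPM, and this gap was 0.865 of the whole range of the group, above Dixon's 95% critical value for 4 libraries. In all, 10 groups were tested in this way, and chance alone marks about 1 in 20 groups.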

How the results depend on the processing

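Ddit3, Shmt2 and Slc7a11 at T2 and Ddit3 and Shmt2 at T1 kept their calls under all alternatives run. Of 778 alternative values for the 10 genes, 724 kept their side of the threshold and, where called, their direction. A change of sign between values that were not called is counted among the 724. The number of the 10 called lower at T1 (3) was 1 with FPKM and no filter, and 1 to 3 when a library was left out. The number higher at T1 (2) was 1 with FPKM and a pseudocount of 1, with or without a filter, 1 with the replicate block, 4 with libraries 1 and 2 only and 1 to 3 leaving out a library. At T2 the number lower (2) was 1 with unfiltered FPKM and 1 with the block, and the number higher (2) was 5 with libraries 1 and 2 only and 2 to 5 leaving out a library. Where the share of all genes called in a setting is not given, the counts of the 10 in this section stand without a background. At T3 against T0, where 0 were called, DESeq2 gave 1 lower and 2 higher, no filter 1 higher, 1 fit of all libraries 1 lower and 1 higher, and leaving out a library 0 to 1 lower and 0 to 5 higher. From T1 to T2 the 1 rise became 2 with DESeq2, no filter or the block. It became 0 with FPKM in its 3 fits and in 1 fit of all libraries, and 0 to 1 leaving out a library. With at least 10 counts in every library the number was also 0, but that filter left Trib3, with 6 to 11 reads at T1, untested. From T2 to T3 (0) DESeq2 and no filter each gave 1 lower and 1 higher, and leaving out a library gave 0 to 1 lower and 0 to 4 higher. Signs reversed with a call for Psat1 at T1 with libraries 1 and 2 only (0.19), Gpt2 there (-0.21), Asns at T2 with those libraries (0.43) and without T0 replicate 3 (0.46), and Slc7a1 at T3 without T0 replicate 3 (0.51, and down to -0.57 without another T0 library). For related genes, 3827 of 4271 alternative values were unchanged in this sense, 290 lost and 152 gained a call. The cause of these changes was not tested. The block could not be fitted at T3 against T0, which share 1 replicate number. Pairing changed the T1 to T2 calls of all genes from 78 to 246. Over all genes, the main counts and their ranges were 1871 (810 to 3733) higher and 2078 (940 to 3729) lower at T1, 2704 (1622 to 3441) and 2751 (1535 to 3426) at T2, 421 (0 to 2000) and 179 (0 to 1865) at T3, 71 (2 to 231) and 7 (0 to 70) from T1 to T2, and 63 (1 to 832) and 87 (0 to 515) from T2 to T3. Depth limits Trib3 at T1, which had 6 to 11 reads a library.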

Other observations

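Chaperones of the endoplasmic reticulum and genes of the unfolded protein response were also examined. Of 20 such genes, 2 rose and 0 fell at T1, and 5 rose and 1 fell at T2. The rises are near the share of all genes, of which 15.1% rose at T1 and 21.4% at T2, while 16.8% and 21.8% fell. Ern1, which encodes the sensor IRE1, rose at T1 (1.02, SE 0.19, adjusted p = 0.00782 in edgeR) and at T2 (1.05, SE 0.24, adjusted p = 0.00797), and Xbp1, its target, rose at T2 (0.85, SE 0.23, adjusted p = 0.0185, and up to 0.0587 without T0 replicate 1 or 2 or T2 replicate 1). Hspa5, the chaperone BiP, was at 429, 432 and 860 CPM at T0 and at 402 to 679 CPM at T2. Without T0 replicate 3, edgeR called 7 of these genes higher at T1, 10 of them in T2 and 11 in T3, in settings where 25.2%, 26.7% and 9.94% of all genes were called higher.

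Among the glutathione and NRF2 genes, Hmox1, heme oxygenase, was at 38.7, 36.1 and 73.4 CPM at T0 and at 65.8 to 83.6 CPM at T2, and Gclm was at 34.5, 42.1 and 83.7 CPM at T0 and 30 to 33.3 CPM at T2. The letters TGATGNAA were in the promoter windows of 8 of 19 other ATF4 targets and 5 of 12 tRNA synthetases that matched a window, and of 0 of 15 folate and glycine enzymes.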
